A study of Mus musculus with 6 samples.

Results

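The genes described here encode the protein subunits of the mitochondrial respiratory chain and the ATP synthase, together with the complex I assembly factors that carry the same symbol stem. They are split by the genome that encodes them. Members were chosen by symbol alone, as genes measured by a probe set with a single symbol that starts with Nduf, Uqcr, Cox4 to Cox8 or Atp5, or that is one of Sdha to Sdhd, plus the protein genes of mitochondrial DNA. Pseudogenes were left out. This gave 97 of the 22180 genes measured, 87 of them nuclear and 10 of them mitochondrial, out of 13 mitochondrial protein genes. The probe sets of the other 3, COX2, ATP6 and ATP8, carry several symbols.

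RNA was measured on 6 Affymetrix arrays, 3 of sorted cells from bone marrow of mice with acute myeloid leukemia (AML) and 3 from mice with chronic myeloid leukemia (CML). All samples carry the genotype Col2.3 GFP, a transgene in which a fragment of the type I collagen promoter drives green fluorescent protein in cells of the bone-forming lineage. The labels call the cells osteoblastic and the titles call them stromal. The titles give AML for 3 samples and CML for 3, but the source names give CML for all 6, so every direction below rests on the titles.

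Whether each sample is a separate mouse is not stated in the labels. The p-values therefore measure how these samples spread around their group means, which may be technical variation. The labels give no age, no means of inducing the leukemia and no healthy control.

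The respiratory chain is built from proteins of 2 genomes. Complexes I, III and IV, which pump protons, and the ATP synthase, also called complex V, combine subunits encoded in the nucleus with a few encoded by mitochondrial DNA. Complex II, succinate dehydrogenase, is encoded by the nucleus alone. Mitochondrial messages are cut from long transcripts of the whole circular genome.

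Nuclear members were mostly higher and mitochondrial members lower by value in the AML samples, and 4 complex I genes passed the test. Of the 97 genes, 4 (4.12%) had a Benjamini-Hochberg adjusted p under 0.05 in limma, against 1.91% of all genes. All 4 were nuclear and higher in AML, which is 4.6% of the nuclear members, against 1.83% of all genes that passed as higher. None fell, against 0.0812% of all genes. By value, 72 of the 87 nuclear members were higher and 15 lower in AML, or 82.8% higher, against 38.3% of all genes. All 10 mitochondrial members were lower by value, against 61.7% of all genes.

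The size of these shifts differed in the same way. The median change of the nuclear members, as AML minus CML on the log2 scale, was 0.36, with an interquartile range of 0.10 to 0.60 and a full range of -0.73 to 1.40. That of the mitochondrial members was -0.44, with a range of -0.82 to -0.06. The median over all genes was -0.11. The AML arrays lay wholly above the CML arrays for 19 nuclear members, against 13.3% of all genes, and wholly below them for 2, against 17.9%. They lay wholly below for 7 of the 10 mitochondrial members. None of the 10 passed the adjusted threshold in limma, and 6 were lower with an unadjusted p under 0.05, against 8.99% of all genes. Of the 87 nuclear members, 14 were higher at an unadjusted p under 0.05 and 1 was lower, or 16.1% higher, against 12.6% of all genes.

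In the whole table, 59.8% of the brighter 50% of genes were higher in AML by value, against 38.3% of all genes. Among 3968 other genes whose mean level lay within the interquartile range of the nuclear members, 75.5% were higher by value, the median change was 0.42 and 5.24% passed. The nuclear members, at 82.8%, 0.36 and 4.6%, lay close to these values. At an unadjusted p under 0.05, 16.1% of the nuclear members were higher, against 33% of those other genes. The AML arrays lay wholly above the CML arrays for 21.8% of the nuclear members, against 33.5% of those other genes. The mitochondrial members have bright probe sets. Of 48 other genes at or above the lowest mean level of a mitochondrial member, 33 were higher and 15 lower in AML, the median change was 0.11, none passed in limma, and an unadjusted p under 0.05 was reached by 5 higher and 1 lower.

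**Figure D1:**
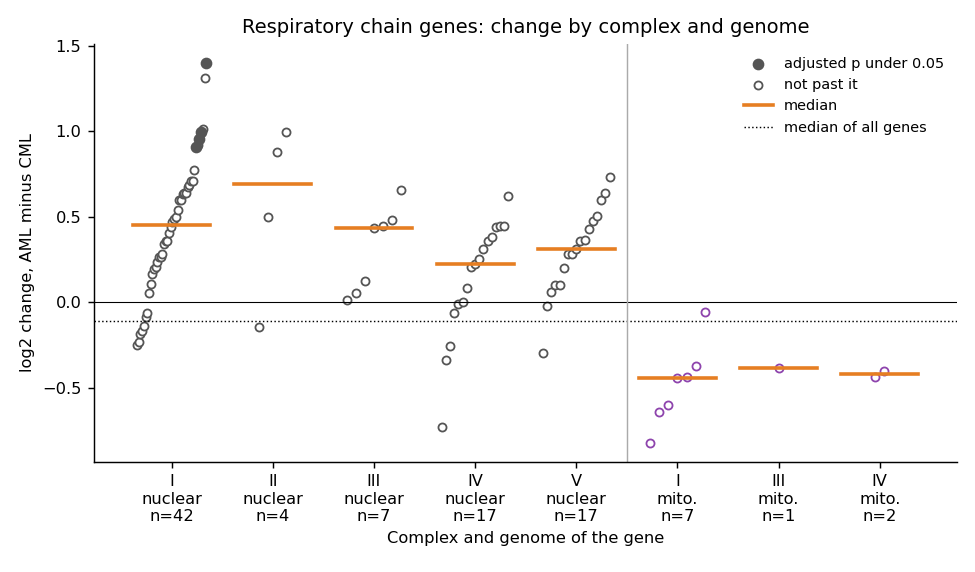
Each point is 1 gene, placed by complex and genome on one axis and by its log2 change, AML minus CML, on the other. All 10 mitochondrial genes lie below 0, while 72 of the 87 nuclear genes lie above it, and the 4 genes past the threshold are all in complex I.

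On single arrays, the score of a gene set is the mean over its genes of the log2 value minus that gene's mean over the 6 arrays. The nuclear score was 0.08, 0.08 and 0.36 on AML 1, 2 and 3, against -0.34, 0.16 and -0.35 on CML 1, 2 and 3. Its mean over 3 arrays was 0.18 ± 0.16 (SD) in AML and -0.18 ± 0.29 in CML. The groups overlapped, because CML 2 lay above AML 1 and AML 2. The mitochondrial score was -0.07, -0.22 and -0.39 on the AML arrays, against 0.13, 0.06 and 0.50 on the CML arrays. It averaged -0.23 ± 0.16 in AML and 0.23 ± 0.24 in CML, and the groups did not overlap.

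The difference of both scores, nuclear minus mitochondrial, was 0.15, 0.31 and 0.76 on the AML arrays, against -0.48, 0.10 and -0.85 on the CML arrays. AML 3 and CML 3 lay at the ends, and CML 2 lay just below AML 1. The other genes in the level range of the nuclear members scored 0.16, 0.14 and 0.31 on AML 1, 2 and 3, against -0.24, 0.01 and -0.37 on CML 1, 2 and 3. Their order over the arrays resembled that of the nuclear members, with CML 2 nearest to the AML arrays.

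**Figure D2:**
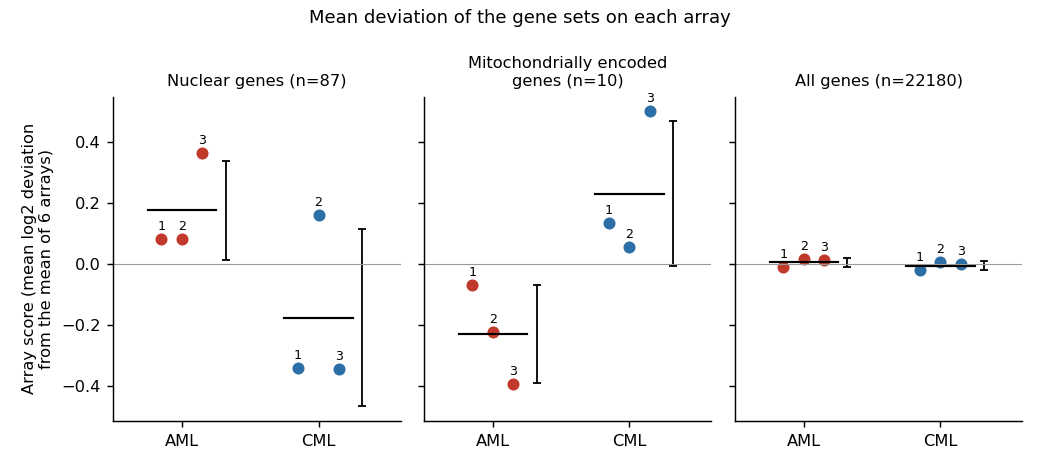
Points are arrays, grouped as AML and CML, and the vertical axis is the array score, the mean log2 deviation from the mean of 6 arrays, with group means and SD, for nuclear, mitochondrial and all genes. The nuclear scores of the groups overlap through CML 2 at 0.16, while the mitochondrial scores run from -0.39 to -0.07 in AML and from 0.06 to 0.50 in CML.

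Markers of other cells differed in both directions. Erythroid and B lineage markers were all lower in AML by value, and T and NK and endothelial markers mostly so. Of 14 pan-haematopoietic genes all were higher in AML by value and 2 (14.3%) passed, against 1.83% of all genes that passed as higher. Of 6 primary granule genes, which mark myeloid progenitors, all 6 passed as higher. The summed intensity of the pan-haematopoietic genes ranged over 6550 to 11291 in AML and 2078 to 5818 in CML. That of the primary granule genes ranged over 4685 to 10944 in AML and 663 to 941 in CML. The 10 measured osteoblast and bone matrix genes were all lower in AML by value, none passed in limma and none had an unadjusted p under 0.05. Their summed intensity ranged over 1512 to 5632 in AML and 3103 to 14153 in CML.

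The markers of the labelled osteoblastic cells were uneven in level. Col1a1, the main collagen of bone, averaged 8.59 ± 1.30 log2 units in AML and 10.30 ± 1.62 in CML. Ibsp averaged 8.50 ± 0.86 in AML and 9.38 ± 1.10 in CML. Sparc averaged 8.97 ± 1.05 in AML and 9.86 ± 1.01 in CML. Alpl averaged 7.31 ± 1.01 in AML and 8.43 ± 1.44 in CML. Some bone markers were dim, with Bglap (osteocalcin) at 4.20 ± 0.79 in AML and 5.36 ± 1.48 in CML. Dmp1 averaged 4.51 ± 0.93 in AML and 5.20 ± 1.68 in CML. Phex averaged 3.97 ± 0.54 in AML and 5.48 ± 1.51 in CML, and Sost 4.38 ± 0.14 in AML and 4.68 ± 0.05 in CML, while the array medians lay between 4.11 and 4.35. Runx2 and Spp1 were not analysed here. Of the blood cell markers, Ptprc, which encodes the pan-leukocyte antigen CD45, averaged 8.82 ± 0.59 in AML and 6.46 ± 1.67 in CML. Neutrophil markers were higher by value in 6 of 7 genes and monocyte markers in 5 of 7. Of the monocyte markers 3 (42.9%) passed as higher, against 1.83% of all genes. Erythroid markers were higher in none of 3. B lineage markers were higher in none of 5, T and NK markers in 1 of 4 and endothelial markers in 1 of 5. No measured gene of these lists had an intensity of 0. The part of these markers in the result was not tested, and fewer cells of a type cannot be told apart from less RNA per cell in such sorted bulk samples.

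Complex I, the NADH dehydrogenase that passes electrons to ubiquinone, held all 4 genes that passed. They made up 9.52% of its nuclear members. The share that passed was 1.91% over all genes and 5.24% over the other genes in the level range of the nuclear members. Of the 42 nuclear members of complex I, 35 were higher and 7 lower by value, and the median change was 0.45. The largest change of the whole set was that of Ndufaf3, an assembly factor needed to build complex I. Its log2 intensity was 7.36, 7.33 and 7.15 on AML 1, 2 and 3, against 5.51, 6.14 and 6.01 on CML 1, 2 and 3. The groups were more than 1 log2 unit apart at their nearest arrays. Ndufaf3 rose by 1.40 ± 0.20 (SE), or 2.64-fold, with a limma adjusted p of 0.0325 and a 95% interval of 0.92 to 1.87.

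Ndufb5, an accessory subunit of the membrane arm, measured 6.90, 7.07 and 7.20 on the AML arrays and 6.16, 6.15 and 6.02 on the CML arrays. The arrays of each group were tightly spaced and did not overlap. It rose by 0.95 ± 0.14, or 1.93-fold, with a limma adjusted p of 0.0358. Ndufb3, a further small accessory subunit of that arm, measured 7.84, 7.57 and 7.45 on the AML arrays and 6.44, 6.76 and 6.68 on the CML arrays. Again no AML array came near the CML range. It rose by 0.99 ± 0.17, or 1.99-fold, with a limma adjusted p of 0.0449.

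Ndufv3 encodes an accessory subunit of the NADH-binding module, where electrons enter. It measured 6.65, 6.34 and 6.53 on the AML arrays and 5.54, 5.77 and 5.49 on the CML arrays. It rose by 0.91 ± 0.15, or 1.87-fold, with a limma adjusted p of 0.0460. Without CML 3, AML 1, AML 2 or AML 3 no member passed. In limma 13 to 17 of the 97 members then had an unadjusted p under 0.05, against 3048 to 3750 of all 22180 genes. Ndufaf3 passed without CML 1 and without CML 2 and kept a change of 1.21 to 1.52 over the 6 omissions. None of the 4 passed after quantile normalization, after cyclic loess or with the trend and robust options, and all 4 passed after median centring.

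**Figure D3:**
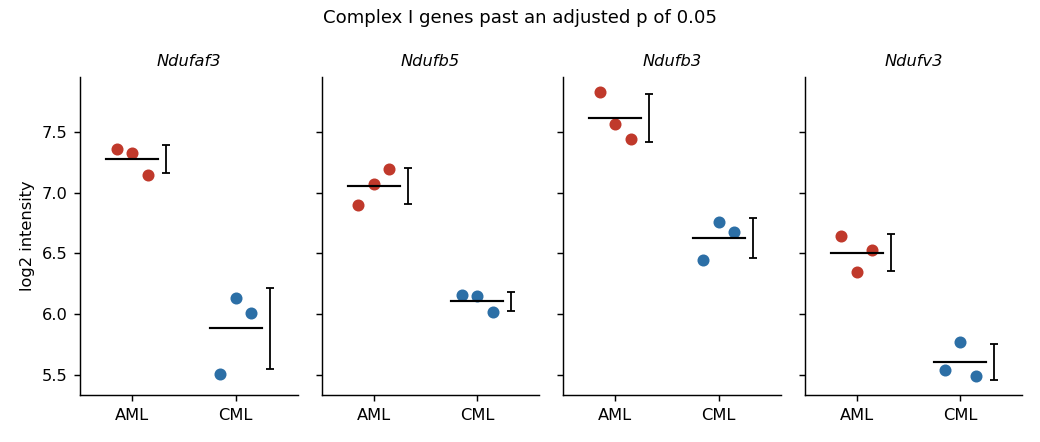
Panels are Ndufaf3, Ndufb5, Ndufb3 and Ndufv3, with arrays as points grouped as AML and CML, log2 intensity on the vertical axis, and group means with SD. In each panel the 3 AML arrays lie above the 3 CML arrays, with the widest gap for Ndufaf3, at 7.28 ± 0.11 in AML and 5.88 ± 0.33 in CML.

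Grouped by role, most complex I genes were higher by value in each class. The 27 accessory subunits had a median change of 0.50, 24 of them higher and 3 (11.1%) past the threshold, against 1.91% of all genes. The 8 assembly factors with Ndufaf symbols had a median of 0.38, 7 of them higher and 1 (12.5%) past the threshold. The 6 measured core subunits of nuclear origin, a class that includes the carriers of the flavin and iron-sulfur centres, had a median of 0.32, 4 of them higher. None passed the adjusted threshold in limma, and 1 had an unadjusted p under 0.05. Ndufa4, whose protein is now counted with complex IV in spite of its symbol, had the brightest probe set of the Nduf genes. It averaged 10.51 ± 0.23 in AML and 10.27 ± 0.48 in CML, a change of 0.24 with a limma adjusted p of 0.587.

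Complex II, which links the tricarboxylic acid cycle to the chain, had 4 members and a median change of 0.69, 3 of them higher (none past the adjusted threshold in limma, 1 with an unadjusted p under 0.05). Sdhd, a membrane anchor subunit, measured 7.45, 7.68 and 7.79 on the AML arrays and 6.66, 7.07 and 6.56 on the CML arrays. The groups did not overlap, and the change of 0.88 ± 0.19 had a limma adjusted p of 0.0739. Sdhd passed after median centring, at 1.03 with a limma adjusted p of 0.0473. Sdhc, the other anchor, measured 7.42, 7.07 and 7.68 on the AML arrays and 6.63, 7.09 and 5.46 on the CML arrays. Its change of 0.996 ± 0.42 had a limma adjusted p of 0.234, with CML 3 the lowest array and CML 2 within the AML range. Sdha, the flavoprotein subunit, differed by 0.50 ± 0.24, with a limma adjusted p of 0.280.

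Complex III, which hands electrons to cytochrome c, had 7 nuclear members, all higher by value, with a median of 0.43 and none with an unadjusted p under 0.05 in limma. Uqcrb, a ubiquinone-binding subunit, averaged 9.17 ± 0.07 in AML and 8.52 ± 0.60 in CML. The spread lay on the CML side, where the arrays measured 8.74, 8.99 and 7.84, and the change of 0.65 ± 0.30 had a limma adjusted p of 0.256. Uqcrc2, a core protein, differed by 0.48 ± 0.31 and Uqcr11 by 0.45 ± 0.31, with limma adjusted p of 0.370 and 0.40. In both the groups overlapped, since CML 2 lay within the AML range.

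Complex IV, cytochrome c oxidase, had 17 nuclear members with a median of 0.22, 12 of them higher by value. None passed the adjusted threshold in limma. At an unadjusted p under 0.05 in limma 0 were higher and 1, Cox6a2, was lower, against 12.6% and 8.99% of all genes. Several of its subunits come in a ubiquitous form and a form largely restricted to muscle, testis or lung. Cox6a2, the heart and muscle form of subunit 6a, was the nuclear member with the most negative change. It measured 4.84, 4.65 and 4.66 on the AML arrays and 5.44, 5.32 and 5.57 on the CML arrays. The AML arrays all lay below the CML arrays, and the change of -0.73 ± 0.14 had a limma adjusted p of 0.0594. Cox6a1, the ubiquitous form, measured 10.85, 10.99 and 11.39 on the AML arrays and 10.66, 11.32 and 10.57 on the CML arrays. The groups overlapped, and the change of 0.22 ± 0.25 had a limma adjusted p of 0.586.

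The 8 tissue-specific or conditional isoforms had a median change of -0.09, with 3 higher and 5 lower by value. That is 37.5% higher, close to the 38.3% of all genes, whose median was -0.11. None passed in limma, and 1, Cox6a2, had an unadjusted p under 0.05. Cox4i2, the oxygen-responsive lung form of subunit 4, averaged 4.11 ± 0.10 in AML and 4.44 ± 0.27 in CML. Cox7b2, a testis form, averaged 2.36 ± 0.05 in AML and 2.61 ± 0.11 in CML, without overlap. Cox7a1, a heart and muscle form, averaged 4.10 ± 0.06 in AML and 4.02 ± 0.39 in CML. Cox8b and Cox8c differed by less than 0.05. Ndufa4l2, a gene induced by low oxygen in many cells, averaged 4.13 ± 0.12 in AML and 4.30 ± 0.38 in CML.

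Cox6b2, a testis form, stood apart by its spread. It measured 8.36, 9.06 and 9.34 on the AML arrays and 6.78, 9.65 and 9.19 on the CML arrays. CML 1 was low, and the other arrays of both groups overlapped, and the change of 0.38 ± 0.74 had a limma adjusted p of 0.754. The other 79 nuclear members had a median of 0.41, with 69 higher and 10 lower by value. Among the ubiquitous complex IV genes, Cox5a, which encodes a matrix-facing subunit, averaged 9.89 ± 0.17 in AML and 9.44 ± 0.28 in CML, a change of 0.45 with a limma adjusted p of 0.236. Cox7a2 differed by 0.62 ± 0.28, with a limma adjusted p of 0.249.

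Complex V, the ATP synthase, had 17 nuclear members with a median of 0.31, 15 of them higher (none past the adjusted threshold in limma, 3 with an unadjusted p under 0.05). The 6 measured genes of the catalytic head and stalk were all higher by value, with a median of 0.42. Atp5e, the epsilon subunit of the central stalk, measured 11.71, 11.79 and 11.75 on the AML arrays and 10.87, 11.31 and 11.28 on the CML arrays. The groups did not overlap, and the change of 0.60 ± 0.16 had a limma adjusted p of 0.122. A second probe set of Atp5e differed by 0.61. Atp5c1, the gamma subunit that turns inside the head, averaged 5.94 ± 0.07 in AML and 5.59 ± 0.04 in CML. Its change of 0.36 ± 0.13 had a limma adjusted p of 0.186.

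The 3 genes that encode the same mature c-ring subunit had a median change of 0.06, with 2 higher and 1 lower by value. Atp5g2 measured 10.55, 10.42 and 10.68 on the AML arrays and 10.35, 9.49 and 9.61 on the CML arrays. CML 1 lay just below the AML arrays and the other CML arrays well below, and the change of 0.73 ± 0.25 had a limma adjusted p of 0.174. Atp5g2 passed without CML 1, at 1.0 with a limma adjusted p of 0.0499. The identifier of its probe set lies among those of chromosome 17 while the gene is on chromosome 15, and its other probe set differed by 0.71. Atp5g1 measured 4.44, 4.56 and 4.18 on the AML arrays and 4.09, 4.75 and 5.22 on the CML arrays. Its change of -0.29 ± 0.29 had a limma adjusted p of 0.544. Atp5l, subunit g of the membrane part, averaged 11.48 ± 0.23 in AML and 11.50 ± 0.08 in CML.

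Single arrays moved the medians of the complexes by more than 1.5 times. That of complex I was 0.74 without CML 2 and 0.30 without CML 3, and that of complex II was 0.45 without CML 3. That of complex III was 0.74 without CML 2, 0.20 without CML 1, 0.18 without CML 3 and 0.25 without AML 3. That of complex IV was 0.13 without CML 1 and 0.15 without AML 3, and that of complex V was 0.19 without CML 3. The sign was positive in each of these, and after cyclic loess, where the medians of complexes I to V were 0.22, 0.35, 0.07, 0.04 and 0.14.

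The mitochondrial genes are given in their order along the circular genome. ND1, a core subunit of complex I, measured 11.45, 11.32 and 11.18 on the AML arrays and 11.75, 11.45 and 12.07 on the CML arrays. CML 2 tied with AML 1 at this rounding and the groups overlapped. The change of -0.44 ± 0.19 had a limma adjusted p of 0.248. ND2 measured 10.85, 10.53 and 10.46 on the AML arrays and 11.21, 10.93 and 11.62 on the CML arrays. No AML array reached the CML range. The change of -0.64 ± 0.22 had a limma adjusted p of 0.176.

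COX1 and COX3 encode core proteins of complex IV. COX1 measured 11.93, 11.80 and 11.53 on the AML arrays and 12.14, 11.97 and 12.36 on the CML arrays. COX3 measured 11.71, 11.44 and 11.33 on the AML arrays and 11.91, 11.74 and 12.12 on the CML arrays. In both the AML arrays lay below the CML arrays by a narrow gap. The changes were -0.40 ± 0.18 and -0.43 ± 0.17, with limma adjusted p of 0.242 and 0.215.

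ND3 was the exception among the mitochondrial members. It measured 12.18, 12.13 and 12.01 on the AML arrays and 11.58, 12.37 and 12.55 on the CML arrays. CML 1 lay below every AML array, and CML 2 and 3 lay above them. The change of -0.06 ± 0.26 had a limma adjusted p of 0.900, and its sign turned after quantile normalization and after median centring, at 0.093 and 0.091, without CML 2, at 0.04, and without CML 3, at 0.13.

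ND4L measured 10.83, 10.74 and 10.33 on the AML arrays and 11.40, 11.18 and 11.78 on the CML arrays. Its change of -0.82 ± 0.22, or 1.77-fold lower in AML, was the most negative of all members, with a limma adjusted p of 0.115. The identifier of its probe set lies among those of chromosome 1, apart from those of the other mitochondrial members. ND4, whose message is joined to that of ND4L, measured 11.87, 11.73 and 11.65 on the AML arrays and 12.10, 11.97 and 12.30 on the CML arrays. Its change was smaller, at -0.37 ± 0.15, with a limma adjusted p of 0.220.

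ND5 measured 11.74, 11.60 and 11.39 on the AML arrays and 12.00, 11.89 and 12.16 on the CML arrays. Its change of -0.44 ± 0.16 had a limma adjusted p of 0.186. ND6 is the one protein gene read from the other strand of mitochondrial DNA. It measured 11.38, 11.34 and 11.12 on the AML arrays and 11.77, 11.70 and 12.16 on the CML arrays. Its change of -0.60 ± 0.18, with a limma adjusted p of 0.137, lay within the range of the genes of the opposite strand.

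CYTB, the mitochondrial subunit of complex III, measured 11.65, 11.42 and 11.36 on the AML arrays and 11.78, 11.63 and 12.18 on the CML arrays. CML 2 lay just below AML 1, and the change of -0.38 ± 0.19 had a limma adjusted p of 0.279. By score over the mitochondrial genes CML 3 was the highest array and AML 3 the lowest. The nuclear scores ran the other way on these arrays, with AML 3 highest and CML 3 lowest, at -0.345, almost level with CML 1 at -0.342. The median of the mitochondrial members stayed between -0.51 and -0.32 when any 1 array was left out, and none of them passed in any setting tried.

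**Figure D4:**
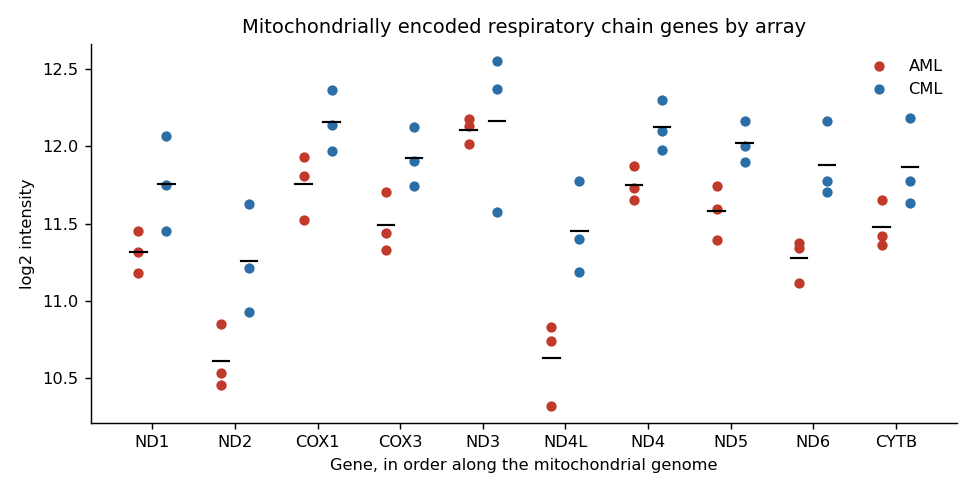
Log2 intensity on the vertical axis is plotted for the 10 mitochondrial genes in their order along the mitochondrial genome, with AML and CML arrays as separate points. AML points lie below CML points for 7 genes, while ND1, ND3 and CYTB overlap, ND3 because CML 1 lies at 11.58.

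The promoter windows of 4 genes are shown, 2 of genes that passed and 2 that hold a site resembling that of NRF1, a transcription factor known to bind many nuclear respiratory genes. Each window is the strand of the gene, 5′ to 3′, from 250 bases before to 50 after the gene's start in RefSeq on GRCm38.p6, and capitals mark matches to the NRF1 motif, exact in Atp5g2 and in the first match of Cox6a1, and with its sixth base free in the second match of Cox6a1. The windows are chr9:108567387-108567686 (minus strand) for Ndufaf3, chr3:32736813-32737112 (plus strand) for Ndufb5, chr5:115348909-115349208 (minus strand) for Cox6a1 and chr15:102670998-102671297 (minus strand) for Atp5g2.
Ndufaf3: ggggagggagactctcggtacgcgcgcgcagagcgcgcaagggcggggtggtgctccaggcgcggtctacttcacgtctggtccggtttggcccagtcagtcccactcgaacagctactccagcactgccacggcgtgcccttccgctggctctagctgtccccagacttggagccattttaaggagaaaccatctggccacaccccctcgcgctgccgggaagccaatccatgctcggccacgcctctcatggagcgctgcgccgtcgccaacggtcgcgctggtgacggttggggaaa
Ndufb5: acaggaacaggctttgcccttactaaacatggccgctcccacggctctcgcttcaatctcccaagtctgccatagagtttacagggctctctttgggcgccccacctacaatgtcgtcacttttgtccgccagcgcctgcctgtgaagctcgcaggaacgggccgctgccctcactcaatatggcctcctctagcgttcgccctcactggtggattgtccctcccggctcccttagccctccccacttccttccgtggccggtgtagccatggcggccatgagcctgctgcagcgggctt
Cox6a1: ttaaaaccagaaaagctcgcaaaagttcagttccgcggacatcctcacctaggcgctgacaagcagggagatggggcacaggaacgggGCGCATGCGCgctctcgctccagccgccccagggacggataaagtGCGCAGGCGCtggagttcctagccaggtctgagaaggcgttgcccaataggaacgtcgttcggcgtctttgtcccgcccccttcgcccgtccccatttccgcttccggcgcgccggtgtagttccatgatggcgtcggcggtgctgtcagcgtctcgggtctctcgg
Atp5g2: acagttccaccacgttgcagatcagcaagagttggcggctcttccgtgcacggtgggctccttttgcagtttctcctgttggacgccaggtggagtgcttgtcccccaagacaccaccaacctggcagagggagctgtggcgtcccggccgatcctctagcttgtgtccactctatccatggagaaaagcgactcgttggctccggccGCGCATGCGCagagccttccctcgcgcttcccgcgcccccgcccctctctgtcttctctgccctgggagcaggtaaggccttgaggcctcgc

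Such windows were found for 72 of the 87 nuclear members, 77 windows in all, and were searched on both strands. The exact NRF1 letters, those in capitals in the Atp5g2 window, which read the same on both strands, stood in 7 of the 77 windows (9.09%), against 0.971% of 32851 windows and 1.33% of the 21263 windows of protein-coding genes. With the sixth of these letters left free, or the fifth when read on the other strand, which includes every match of the first search, 18 windows matched (23.4%), against 4.6% of all windows and 6.38% of those of protein-coding genes. The letters aagatggc or gccatctt, of the kind bound by YY1, stood in 10 windows (13%), against 2.75% and 3.05%. The letters ccggaagt or acttccgg, of the kind bound by GABPA, stood in 5 windows (6.49%), against 3.89% and 5.15%. Of the 72 members with a window, 41 held none of these letters, and Ndufaf3, Ndufb3, Ndufb5 and Ndufv3 were among them. The YY1 and GABPA letters were searched only as exact matches, so windows with close variants of them were not counted as holding a match. A match is a description of the sequence, and binding was not measured.

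The genes around the chain were read from lists of its pathway. For each list the background at an unadjusted p under 0.05 is 12.6% of all genes higher and 33% of the other genes in the level range of the nuclear members, of which 75.5% were higher by value. Of 38 measured assembly factors without member symbols, 33 were higher by value and the median change was 0.43. At an unadjusted p under 0.05 in limma 13 (34.2%) were higher and 1 was lower. The adjusted threshold was passed by 1 (2.63%), against 1.91% of all genes and 5.24% of the other genes in that level range. That gene was Lyrm2, which encodes a small mitochondrial protein of the LYR family. It averaged 7.47 ± 0.05 in AML and 5.76 ± 0.42 in CML and rose by 1.71 ± 0.22, with a limma adjusted p of 0.0298, and with 1 array left out it passed only without CML 1 and without CML 2. Lyrm2 did not pass after quantile normalization or cyclic loess, with limma adjusted p of 0.0560 and 0.0548. All 16 measured genes of the tricarboxylic acid cycle were higher by value, with a median of 0.59. None passed in limma and 6 (37.5%) had an unadjusted p under 0.05. Suclg1, a subunit of succinyl-CoA ligase, differed by 0.88 with a limma adjusted p of 0.105, and Suclg2, a partner subunit, by 1.19 with 0.176.

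Of 22 carriers, porins and import genes, 20 were higher by value with a median of 0.63. None passed in limma and 9 (40.9%) had an unadjusted p under 0.05. Tomm22, an import receptor of the outer membrane, differed by 0.79 with a limma adjusted p of 0.0770, and Slc25a5, which exchanges ADP for ATP across the inner membrane, by 0.84 with 0.153. Of 10 electron carriers and related genes, 7 were higher by value with a median of 0.45, none passed in limma and 4 (40%) had an unadjusted p under 0.05. Etfb, which brings electrons from fatty acid oxidation, differed by 1.40 ± 0.27 with a limma adjusted p of 0.0587. Etfb passed after median centring, in the upper 50% of genes and with array weights, with limma adjusted p of 0.0440, 0.0409 and 0.0443. Higd2a, which encodes an inner membrane protein of the supercomplexes, differed by 1.52 with a limma adjusted p of 0.162.

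Genes that keep and express mitochondrial DNA were mostly higher in AML by value. Of 28 measured, 23 were higher, with a median of 0.35. None passed in limma and 8 (28.6%) had an unadjusted p under 0.05. Tbrg4, which acts on mitochondrial RNA, differed by 0.71 with a limma adjusted p of 0.123, and Polg2, the accessory subunit of the mitochondrial DNA polymerase, by 0.60 with 0.130. Of 10 regulators of mitochondrial biogenesis, 6 were higher by value with a median of 0.03, none passed in limma and 1 (10%) had an unadjusted p under 0.05. Gabpa differed by 0.50 with a limma adjusted p of 0.149, and Ppara, a nuclear receptor of lipid use, by -0.29 with 0.374. Atpif1, which encodes the inhibitor of the ATP synthase, differed by -0.26 with a limma adjusted p of 0.736.

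Scaling between arrays bears on the size of the nuclear shift. Median centring moved the median of all genes to 0.04, from -0.11 in the deposited values. Relative to that median, the nuclear members lay 0.47 higher in the deposited values and after median centring, 0.26 higher after quantile normalization and 0.14 higher after cyclic loess. The mitochondrial members lay at -0.33 relative to it in the deposited values and after median centring, at -0.35 after quantile normalization and at -0.66 after cyclic loess. The signs of both medians were the same in all 4. The count of nuclear members higher by value was 65 of 87 after quantile normalization, 79 after median centring and 55 after cyclic loess.

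**Figure D5:**
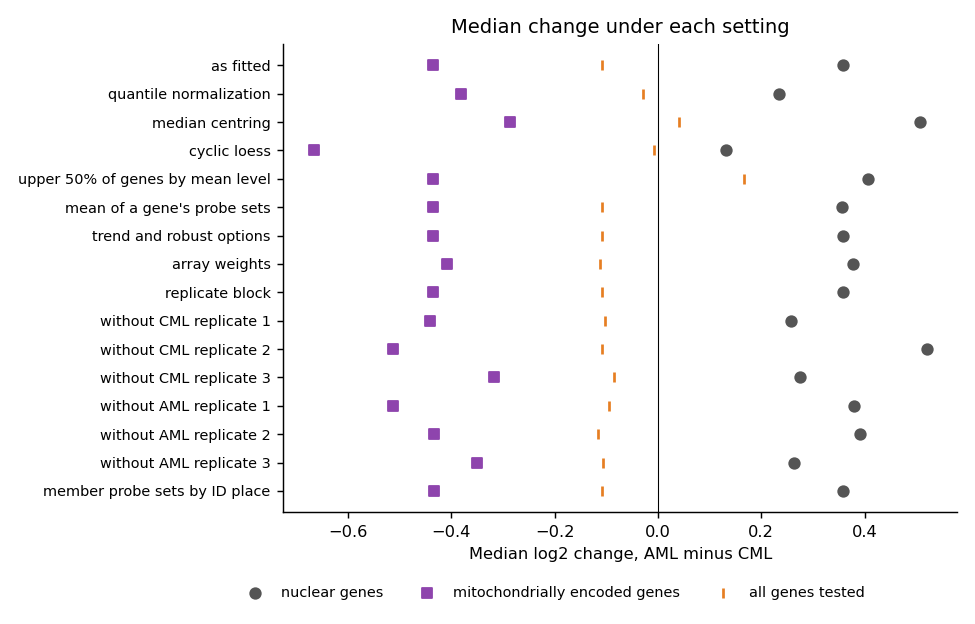
Rows are the settings of the analysis and the horizontal axis is the median log2 change, AML minus CML, of the nuclear members, the mitochondrial members and all genes. The nuclear medians lie above 0 and the mitochondrial medians below 0 in every row, with the nuclear median lowest after cyclic loess at 0.13.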

How the data were processed

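Each sample of primary sorted cells, per the labels' protocols, gave 1 array. The deposited values are intensities, and their range shows a linear scale. Limma and lumi appear in the submitters' processing notes without a step or version. The authors' background correction and normalization were not given in the sources used. Median intensity was 17.2, 17.8 and 17.4 on AML 1, 2 and 3 and 19.1, 18.6 and 20.4 on CML 1, 2 and 3. The number of arrays limits the precision.

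Of 39721 probe sets, 23521 carried 1 symbol in the platform annotation, 1814 several and 14386 none. A RefSeq table of GRCm38.p6 held 23328 of those with 1 symbol, missed 193 and changed 0. The probe set of highest mean stood for each gene, 9 members among them having more than 1, and 2 member pseudogenes were left out.

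The deposited intensities were set to at least 1 and turned to log2, and lmFit and eBayes of limma 3.58.1 (R 4.3.3) were run over all 22180 genes and 6 arrays, leaving 4 residual degrees of freedom per gene. Tests were two-sided, and p-values were adjusted over all genes by Benjamini-Hochberg with a threshold of 0.05. Intervals are at 95%. The fitting steps were tested on simulated data.

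Named genes were members past the threshold, the 3 nuclear genes of lowest p and the one of highest mean in each complex, all mitochondrial genes, the 3 most negative nuclear genes, the isoforms, and up to 3 genes a pathway list. The members and lists were chosen with earlier results of these data known. Scaling was varied by cyclic loess, median centring and quantile normalization. The other alternatives kept the upper 50% of genes, averaged probe sets by gene, used array weights, the trend and robust options or a replicate block, or omitted 1 array at a time. One that replaces or drops member probe sets whose identifiers lie among those of another chromosome was chosen after seeing the data. Python 3.11.15 and matplotlib 3.10.9 drew the figures.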

Additional observations from a re-analysis of the deposited data

How the results depend on the processing

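Against 4 members past the threshold, 7 passed after median centring, the same 4 with Ndufa8, Ndufaf8 and Sdhd. In limma 0 passed after quantile normalization, 0 after cyclic loess, 0 with the trend and robust options and 0 with the replicate block. In those settings 18, 21, 17 and 16 of the 97 members had an unadjusted p under 0.05 in limma. The matching counts over all 22180 genes were 3604, 3593, 4972 and 3711. With 1 array left out, 0 to 2 members passed. The 2 were Atp5g2 and Ndufaf3 without CML 1, and Ndufa2 and Ndufaf3 without CML 2. Over all genes, 423 passed in the deposited values, 896 after median centring, 93 after quantile normalization, 64 after cyclic loess, 639 with array weights and 0 without CML 3, AML 1 or AML 2, where 3533, 3048 and 3750 had an unadjusted p under 0.05 in limma. The nuclear median was 0.26 to 0.52 over the omissions. The mitochondrial median was -0.67 after cyclic loess. The count of 4 members was the same with probe sets averaged by gene, with array weights and without misplaced probe set identifiers, and was 3 of 88 members in the upper 50% of genes. The cause of these shifts was not tested.

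Sign turned for genes that passed in no setting. After quantile normalization Cox8c was at 0.11 and ND3 at 0.093. After median centring Cox8c was at 0.14, ND3 at 0.091 and Atp5l at 0.13. After cyclic loess Cox8c was at 0.13, Ndufa4l2 at 0.039, Cox6a1 at -0.046 and Ndufa4 at -0.056, and with array weights Cox8c was at 0.0032. With 1 array left out, Cox6b2 ranged over -0.50 to 0.94, Cox7a1 over -0.12 to 0.28, Cox8b over -0.10 to 0.16, Cox8c over -0.053 to 0.039, Atpif1 over -0.64 to 0.088, ND3 over -0.35 to 0.13, Atp5l over -0.15 to 0.067 and Ndufa4l2 over -0.29 to 0.047. The cause was not tested.

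The labels give both groups replicate numbers 1 to 3, but nothing says that a number marks a shared mouse or day. Deviations of same-numbered arrays correlated at 0.24, -0.30 and -0.25, and not every array correlated best with its own number. With 3 arrays a group, these values cannot show whether the numbers pair the samples. With the replicate block 0 of all genes passed in limma and 3711 had an unadjusted p under 0.05.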

Other observations

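Probe sets that carry several symbols stood outside the comparison, and their values are given without a test. The probe set shared by COX2 and Prf1 averaged 11.75 ± 0.21 log2 units in AML and 12.11 ± 0.24 in CML, a difference of -0.36. The one shared by ATP6, ATP8 and Gm10925 averaged 11.41 ± 0.27 in AML and 11.89 ± 0.33 in CML, a difference of -0.48. Both lie in the direction and range of the mitochondrial genes measured alone. The identifier of the probe set of ATP6, ATP8 and Gm10925 lies beside that of ND4L, among those of chromosome 1. Among nuclear genes, the probe sets of Cox6c with Gm6265 differed by 0.01 and 0.78, and those of Ndufs6 with Ndufs6b by 0.25 and 0.73. The one of Uqcr10 with Gm6293 differed by 0.47, that of Ndufb2 with Adck2 by 0.27, and that of Ndufb4 with its copies by 0.10.

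Of 9 members with a second probe set of their own, 7 had the same sign in both and 2 did not. Cox5b differed by 0.21 in the probe set used and by -0.12 in the other, and the identifier of the one used lies among those of chromosome 13 while the gene is on chromosome 1. Ndufa11 differed by 0.34 in the probe set used and by -0.05 in the other. Atp5h, whose probe set identifier lies among those of chromosome 15 while the gene is on chromosome 11, differed by 0.64 and by 0.62. Ndufs5 differed by -0.25 in its own probe set and by 0.44 in one shared with a pseudogene, and Uqcrb by 0.65 in its own and by -0.01 in one shared with Gm10767. Of the 10 neighbours by identifier of that first Uqcrb probe set, 7 were of chromosome 5, while the gene is on chromosome 13. For Cox7b, on chromosome X, 7 were of chromosome 1, and for Ndufa11, on chromosome 17, 6 were of chromosome 16. The alternative by identifier kept these probe sets.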
